A study of Mus musculus with 6 samples.

Results

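The glutathione and NRF2 antioxidant genes were followed as a set in tail skin of mice with an inducible keratinocyte Cre and of their controls. Members were taken by gene symbol: the soluble and microsomal glutathione transferases, glutathione peroxidases, peroxiredoxins, every gene whose symbol begins with Txn, the superoxide dismutases, and Gclc, Gclm, Gss, Gsr, Slc7a11, Srxn1, Nqo1, Hmox1, Nfe2l2 and Keap1. The rule found 67 members among the 18180 genes of the count table, none of them a pseudogene. The symbol rule also took thioredoxin-fold genes with other known jobs, such as Txnl4a and Txnl4b of the spliceosome and the endoplasmic reticulum gene Txndc5.

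RNA of the 3 libraries labelled cKO came from Mettl3fl/fl;K14creERT2+/- mice, and that of the 3 Ctrl libraries from Mettl3fl/fl;K14creERT2-/- mice, so both groups carry the floxed Mettl3 gene. METTL3 is the catalytic part of the methyltransferase that puts N6-methyladenosine on RNA, and the K14 promoter drives the tamoxifen-dependent Cre in basal keratinocytes; cells that descend from them inherit a deletion, and cells of other origin, such as fibroblasts and immune cells, are not targeted. Per the series' design text, tamoxifen was given on 5 consecutive days and skin was taken 4 weeks later, from inflamed patches of tail that arose on their own in Cre mice and from normal control tails. Genotype and inflamed tissue therefore cannot be told apart. The injections are described for the mice in general and for no group by name. Strain and age were not stated in the labels. The labels also leave out whether each library is another mouse. The p-values thus describe the spread among these 6 libraries alone, and that spread may be technical.

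Libraries held 35855880 to 36113956 counts in the cKO group and 36115822 to 37043849 counts in Ctrl, where 3 counts amount to 0.0817 to 0.0837 counts per 1000000 counted (CPM, with the scaled library sizes used throughout). The targeted gene went against the label, as Mettl3 had 15.8, 14.1 and 14.8 CPM in the libraries labelled cKO, against 12.0, 10.9 and 9.18 CPM in the Ctrl libraries (log2 fold change 0.48, SE 0.109, adjusted p = 0.000102 by edgeR's quasi-likelihood test). These counts cover the whole gene without resolving the floxed exons. With an assumed biological coefficient of variation of 20% the adjusted p of Mettl3 was 0.15. The keratinocyte markers Krt5, Krt14, Krt1 and Krt10 were abundant. Over all genes tested 30.8% were called higher and 30.6% lower. Of 9 keratinocyte markers 5 were called higher and 3 lower, with a median log2 fold change of 0.17. Their sum was 59644 to 60288 CPM in the libraries labelled cKO and 30849 to 31082 CPM in Ctrl, with the largest fold change in Krt1, which had 20492 ± 141 CPM in the libraries labelled cKO and 2170.1 ± 15.9 CPM in Ctrl; Trp63, Dsg1a and Itgb4 were the 3 called lower. Members with at least 1000 counts in every library varied little within a group, with a median coefficient of variation of 2.49% over the libraries labelled cKO and 2.51% over Ctrl for 31 such members.

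Glutathione is a tripeptide made from imported cystine and spent by peroxidases that reduce peroxides and by transferases that couple it to reactive compounds. The thioredoxin and peroxiredoxin system is a parallel route that also draws its electrons from NADPH. Many genes of both routes are activated by the transcription factor NRF2, the product of Nfe2l2, which binds the antioxidant response element. KEAP1 holds NRF2 low by directing it to degradation, so much of the control of NRF2 is on the protein and is not seen in RNA. In epidermis these enzymes meet the peroxides of light, inflammation and cornification.

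The Nfe2l2 transcript was 2.75-fold higher in the libraries labelled cKO, and the genes of the set changed in both directions. With Nfe2l2, the transferases Gsta4, Gsta1 and Gsto1 and the cystine importer Slc7a11 rose most, while Gsta3, Gsta2, Txnip, Gstt3, Gpx3, Gstm5, Gpx4 and Mgst1 fell. Of the 67 members 63 passed the low-count filter, and 35 of these were called higher and 19 lower at an adjusted p under 0.05 by edgeR's quasi-likelihood test, adjusted over all genes tested. Among all 15061 genes tested 61.4% were called, 30.8% higher and 30.6% lower; the corresponding shares of tested members were 85.7%, 55.6% and 30.2%. By adjusted p alone, the share called lower was near the background, and the share called higher was above it. The median level of the tested members was 38.2 CPM, against 20.7 CPM over all genes tested. The median log2 fold change of the tested members was 0.12, beside 0.0021 over all genes, and its median size regardless of sign was 0.44, beside 0.31. At least 1.5-fold changes were called in 12 members upward and 11 downward, that is 23 of 63, where 22.7% of all genes tested passed both thresholds (12.3% upward and 10.3% downward). With both thresholds the members' shares were above those of all genes in either direction. The 2 groups did not overlap in 52 of the 63 tested members, against 64.9% of all genes tested.

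**Figure D1:**
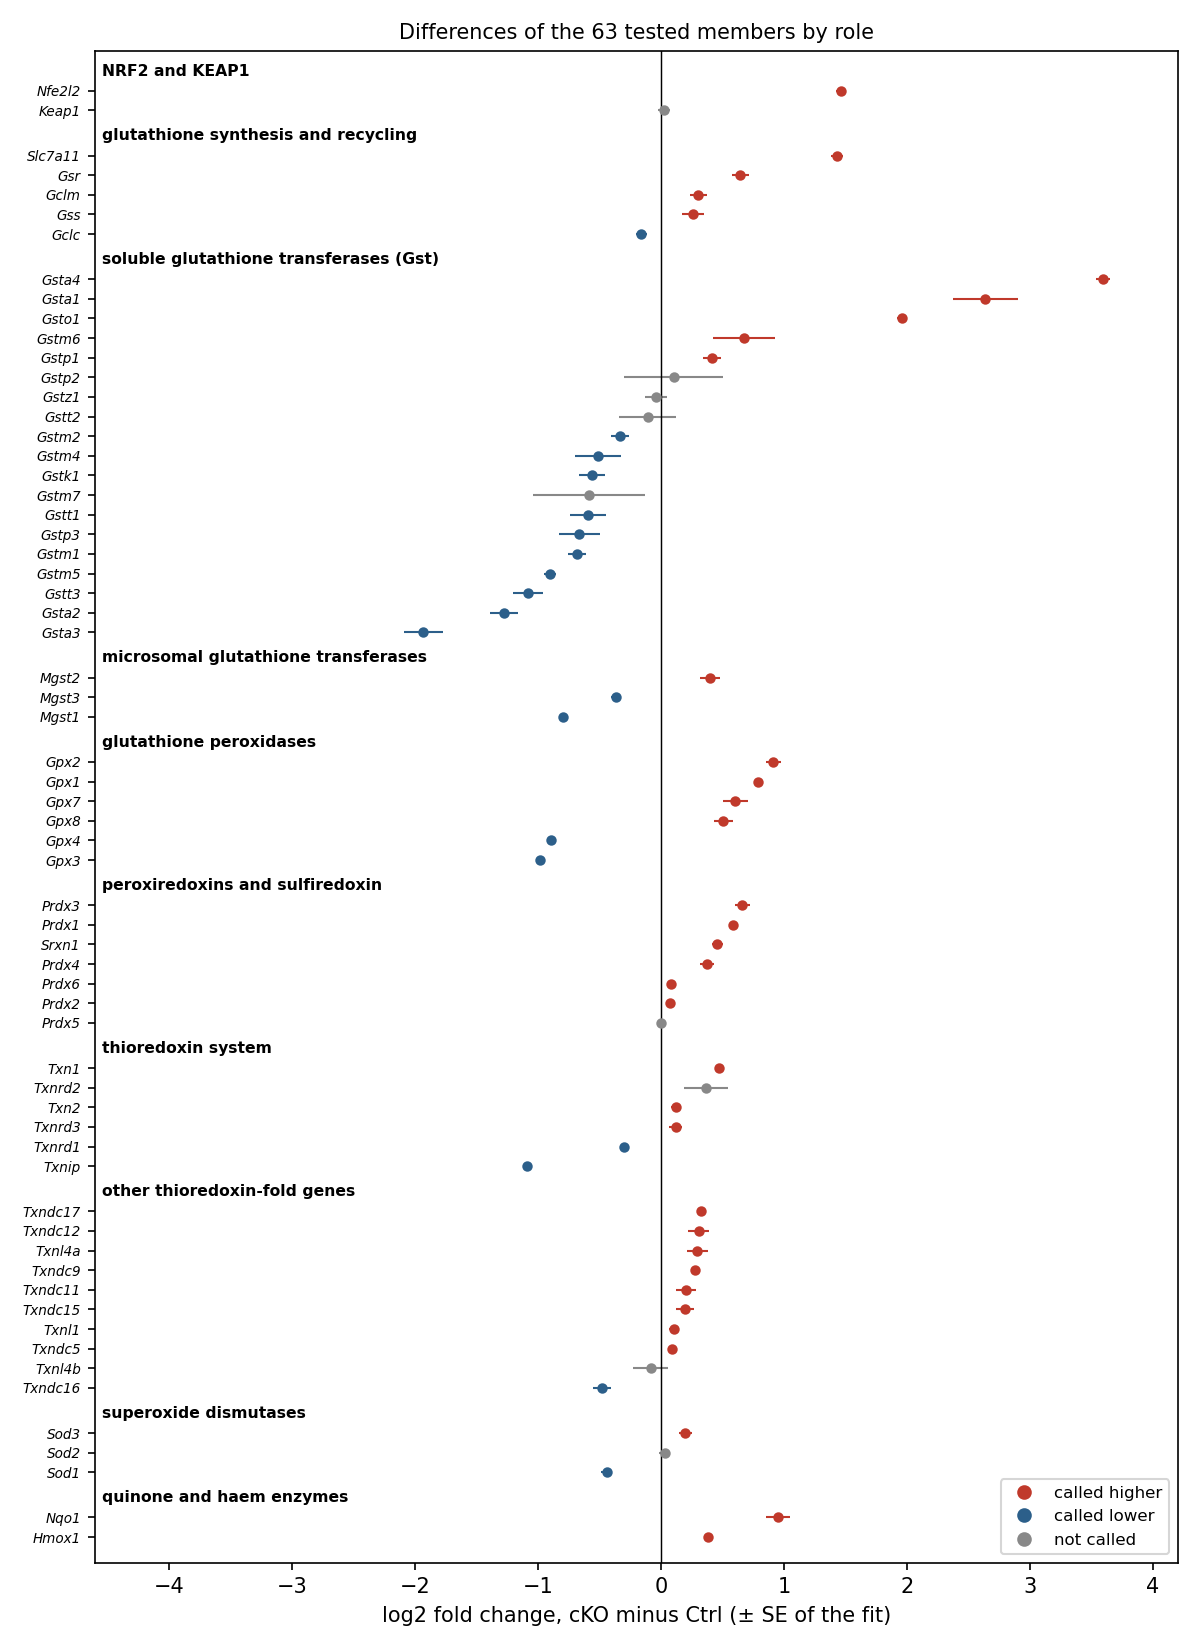
Log2 fold change (libraries labelled cKO minus Ctrl) of the 63 tested members, grouped by role, with bars of 1 standard error of the edgeR fit; red points were called higher, blue lower and grey not called. The transferases spread from -1.93 (Gsta3) to 3.59 (Gsta4), while the peroxiredoxins lie between -0.00085 (Prdx5) and 0.66 (Prdx3).

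Levels in whole skin depend on the cells present, and in such libraries fewer cells of a type and less RNA per cell cannot be told apart. Beside the falls among the members, 11 of 12 sebocyte markers were called lower, summing to 3006 to 3025 CPM in the libraries labelled cKO and 6620.1 to 6695 CPM in Ctrl, as were 7 of 8 hair shaft and scale markers (6038 to 6116 CPM in the libraries labelled cKO and 31449.6 to 31507 CPM in Ctrl) and 5 of 6 adipocyte markers. The 6 markers of the stress keratin list include Sprr2d and Sprr1b, which are not keratins. Beside the rises, all 6 were higher (28703 to 29733 CPM in the libraries labelled cKO and 3518 to 3560.1 CPM in Ctrl). So were all 7 tested of 11 neutrophil markers (3500.1 to 3559.9 CPM in the libraries labelled cKO and 103 to 109.5 CPM in Ctrl, mostly from S100a8 and S100a9, which keratinocytes also make) and all 7 proliferation markers. All 6 tested red blood cell markers were lower, at 74.4 to 75.4 CPM in the libraries labelled cKO and 122 to 135 CPM in Ctrl. For scale, 30.8% of all genes tested were called higher and 30.6% lower. No marker in these lists was at 0 in all libraries, and their part in the members' differences was not tested.

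The regulator and its inhibitor behaved differently. Nfe2l2 had 157, 158 and 154 CPM in the libraries labelled cKO, against 57.2, 57.1 and 56.4 CPM in the Ctrl libraries. Every library labelled cKO was well above every Ctrl library (log2 fold change 1.46, SE 0.0366, adjusted p = 5.92e-48). Keap1, the adaptor that delivers NRF2 to the CUL3 ubiquitin ligase, had 53.6, 52.6 and 54.0 CPM in the libraries labelled cKO, against 55.2, 53.6 and 48.8 CPM in the Ctrl libraries. Its groups overlapped and it was not called (log2 fold change 0.02, SE 0.0522, adjusted p = 0.705); the log2 difference was -0.0242 without Ctrl replicate 3.

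NRF2 binds an element whose core can be written TGACNNNGC. This core was searched on both strands in the RefSeq promoter windows of GRCm38.p6, which run from 250 bases before to 50 bases after a gene's start. That build is not the one of the deposited counts, and the windows serve only as sequence. At least 1 window was found for 58 of the 67 members, and 13 of these held the core (22.4%), beside 13.99% of the 27025 genes in the table. The core stood in 6 of 28 members called higher and in 5 of 18 called lower. Those called higher were Nfe2l2, Gclm, Prdx1, Srxn1, Txndc5 and Txndc11, and those called lower Txnrd1, Mgst1, Gstm5, Gsta3 and Sod1. A match is a string of letters, not a shown binding site, and elements farther from the start lie outside the window. Whether the core goes with the direction of a difference was not tested. The upstream 250 bases of 6 of these genes, 3 chosen from those called higher and 3 from those called lower, are given below. They run 5′ to 3′ on the gene's strand with the core in capitals.
Nfe2l2, chr2:75704664-75704913, minus strand: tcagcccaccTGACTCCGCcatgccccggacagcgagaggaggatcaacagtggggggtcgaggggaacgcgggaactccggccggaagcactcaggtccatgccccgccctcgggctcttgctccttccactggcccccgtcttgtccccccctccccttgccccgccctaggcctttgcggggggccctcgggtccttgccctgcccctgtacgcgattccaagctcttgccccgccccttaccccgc
Gclm, chr3:122245307-122245556, plus strand: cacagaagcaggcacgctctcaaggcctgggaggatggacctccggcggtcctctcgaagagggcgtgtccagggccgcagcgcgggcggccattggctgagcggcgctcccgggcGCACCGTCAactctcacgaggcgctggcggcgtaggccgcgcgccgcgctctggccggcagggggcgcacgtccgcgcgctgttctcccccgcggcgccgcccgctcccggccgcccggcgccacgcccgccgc
Prdx1, chr4:116685349-116685598, plus strand: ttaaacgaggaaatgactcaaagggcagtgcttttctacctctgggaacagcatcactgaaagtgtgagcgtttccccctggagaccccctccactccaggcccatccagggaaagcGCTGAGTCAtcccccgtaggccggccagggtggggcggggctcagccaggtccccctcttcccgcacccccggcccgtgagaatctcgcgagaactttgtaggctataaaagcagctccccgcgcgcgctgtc
Txnrd1, chr10:82858956-82859205, plus strand: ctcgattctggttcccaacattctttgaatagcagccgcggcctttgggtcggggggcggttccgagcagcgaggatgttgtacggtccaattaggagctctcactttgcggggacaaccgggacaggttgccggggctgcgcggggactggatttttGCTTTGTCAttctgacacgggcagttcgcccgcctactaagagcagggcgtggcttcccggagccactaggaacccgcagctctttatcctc
Mgst1, chr6:138140277-138140526, plus strand: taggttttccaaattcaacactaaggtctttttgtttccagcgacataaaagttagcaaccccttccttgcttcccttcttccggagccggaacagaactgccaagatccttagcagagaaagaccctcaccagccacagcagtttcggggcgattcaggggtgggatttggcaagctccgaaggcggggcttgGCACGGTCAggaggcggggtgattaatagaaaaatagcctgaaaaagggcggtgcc
Gstm5, chr3:107895604-107895853, plus strand: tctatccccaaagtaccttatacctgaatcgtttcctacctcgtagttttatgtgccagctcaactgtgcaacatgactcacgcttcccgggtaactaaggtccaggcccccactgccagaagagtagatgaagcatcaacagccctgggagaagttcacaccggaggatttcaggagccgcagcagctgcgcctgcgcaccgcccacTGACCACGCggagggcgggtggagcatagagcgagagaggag
Nfe2l2 and Gstm5 hold the core on the gene's own strand, starting at positions -240 and -42 from the start. In Gclm, Prdx1, Txnrd1 and Mgst1 it lies on the opposite strand, with its left end at -134, -133, -92 and -56. Txnrd1 has 3 windows in the table and Mgst1 has 2, and the one printed for each is the only one of them that holds the core.

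All 5 genes of glutathione synthesis and recycling were called, 4 of them higher, where 61.4% of all genes tested were called and 30.8% higher. Slc7a11, the cystine importer of the plasma membrane, had 97.5, 102 and 108 CPM in the libraries labelled cKO, against 38.3, 37.3 and 38.3 CPM in the Ctrl libraries. The groups were far apart, a 2.70-fold rise (log2 fold change 1.43, SE 0.0469, adjusted p = 1.76e-40). Glutamate-cysteine ligase, the enzyme of the first and limiting step, has a catalytic subunit from Gclc and a modifier subunit from Gclm, and these moved in opposite directions. Gclc had 64.4, 68.3 and 65.2 CPM in the libraries labelled cKO, against 70.8, 76.8 and 73.9 CPM in the Ctrl libraries. That is a fall of small size with no overlap (log2 fold change -0.16, SE 0.0452, adjusted p = 0.00143). Gclm had 30.2, 34.4 and 35.0 CPM in the libraries labelled cKO, against 27.4, 25.4 and 27.9 CPM in the Ctrl libraries. It was 1.23-fold higher (adjusted p = 0.000126 by edgeR). Glutathione synthetase, Gss, had 22.1, 22.1 and 20.3 CPM in the libraries labelled cKO, against 16.5, 17.5 and 19.9 CPM in the Ctrl libraries. Its highest Ctrl library, replicate 3, nearly reached the lowest library labelled cKO, and the call (adjusted p = 0.00746) was lost without Ctrl replicate 1 (adjusted p = 0.0616). Gsr, the reductase that restores oxidised glutathione, had 33.9, 36.9 and 36.5 CPM in the libraries labelled cKO, against 21.2, 23.5 and 23.8 CPM in the Ctrl libraries, a 1.56-fold rise without overlap (log2 fold change 0.65, SE 0.0704, adjusted p = 8.11e-13).

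**Figure D2:**
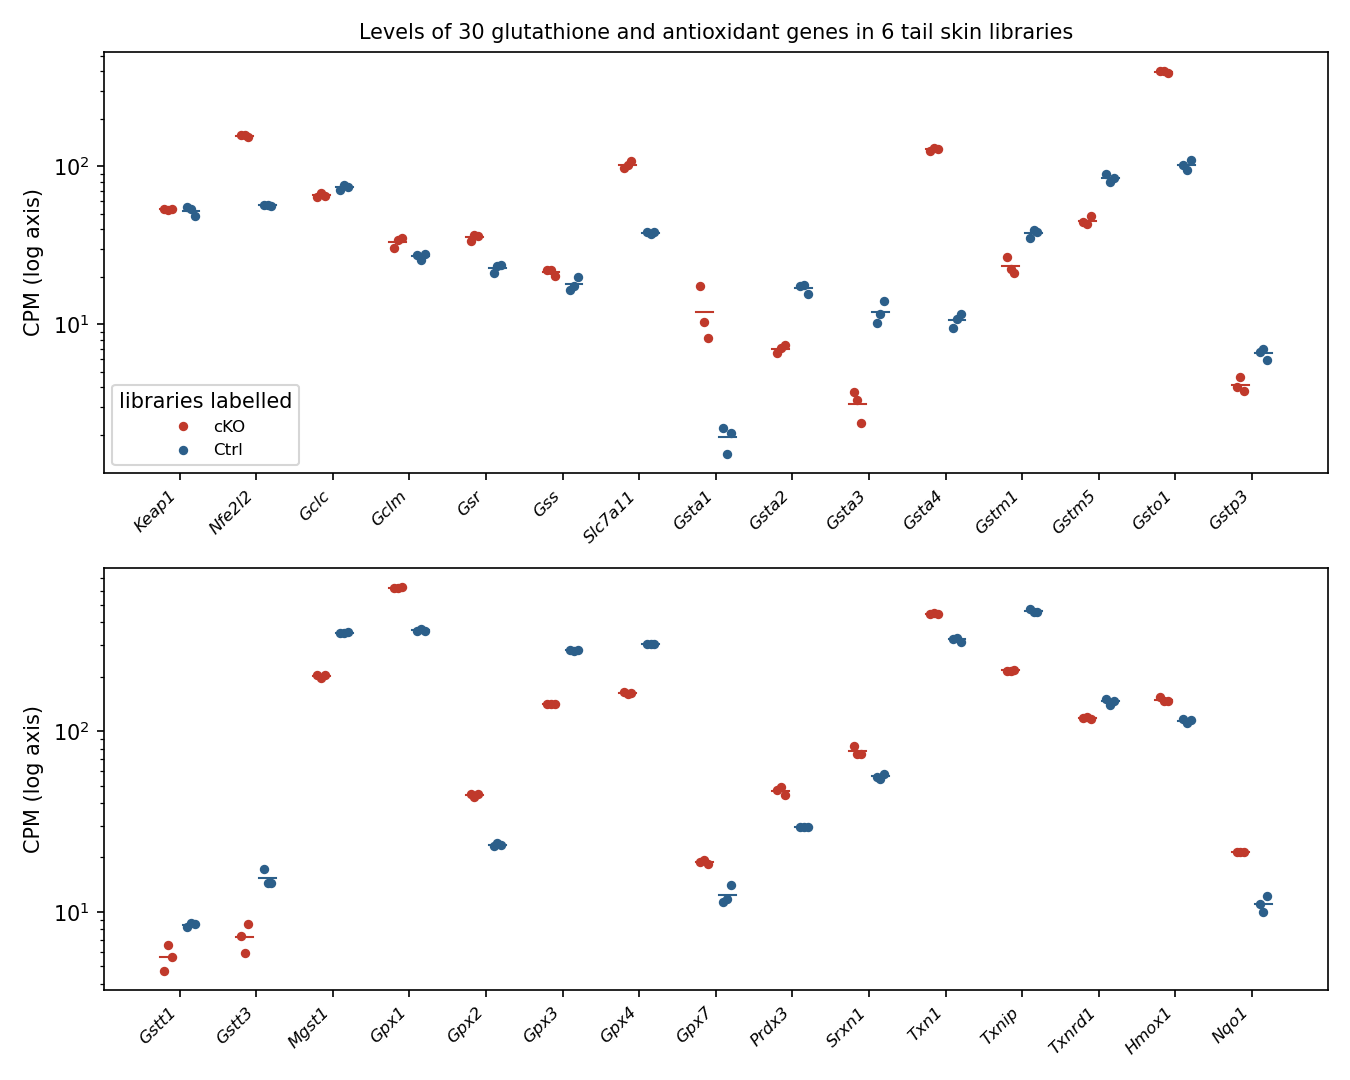
Levels in CPM (log axis) of the 30 members named with library values, one point per library and a line at the group mean, with the 3 libraries labelled cKO left of the 3 Ctrl libraries for each gene. Nfe2l2, Slc7a11, Gsta4 and Gsto1 stand clear above Ctrl, Keap1 overlaps it, and Gsta1 has the widest spread among the libraries labelled cKO (8.19 to 17.5 CPM).

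The soluble glutathione transferases, enzymes that couple glutathione to electrophiles, split into a few strong rises and many moderate falls. Of 22 Gst genes 19 were tested. Of these 5 were called higher, 10 lower and 4 not called, with a median log2 fold change of -0.51. That is 26.3% higher and 52.6% lower, against 30.8% and 30.6% of all genes tested. The alpha class divided evenly. Gsta4, whose enzyme clears the aldehydes of lipid peroxidation, had 125, 132 and 129 CPM in the libraries labelled cKO, against 9.54, 10.8 and 11.7 CPM in the Ctrl libraries. It was the steepest riser among members at 12.1-fold (log2 fold change 3.59, SE 0.0560, adjusted p = 1.35e-61). Gsta1 had 17.5, 10.4 and 8.19 CPM in the libraries labelled cKO, against 2.21, 1.51 and 2.07 CPM in the Ctrl libraries. All libraries labelled cKO lay above Ctrl, but replicate 1 stood well above the others (log2 fold change 2.64, SE 0.264, adjusted p = 4.83e-07). With 1 library left out its log2 fold change ranged from 2.27 to 2.85.

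Gsta2 had 6.59, 7.05 and 7.36 CPM in the libraries labelled cKO, against 17.6, 17.8 and 15.5 CPM in the Ctrl libraries. Gsta3 had 3.74, 3.30 and 2.36 CPM in the libraries labelled cKO, against 10.2, 11.6 and 14.0 CPM in the Ctrl libraries. Both were lower in every library labelled cKO than in every Ctrl library, with log2 fold changes of -1.27 and -1.93 (adjusted p = 2.19e-16 and 3.13e-18 by edgeR). Gsta1 and Gsta2 encode close relatives whose reads the counting could have split, so their separate values are uncertain, as are those of Gstp1, Gstp2 and Gstp3 and of the Gstm genes. Genes with processed pseudogenes, such as Gpx4 and Txn1, carry a like uncertainty.

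Gsto1, an omega-class enzyme known for reducing dehydroascorbate and for adding or removing glutathione on proteins, had 403, 400.2 and 388 CPM in the libraries labelled cKO, against 102, 94.5 and 110.3 CPM in the Ctrl libraries. Per gene length, with the SD over 3 libraries after ± here and in what follows, its level was 339 ± 7.11 fragments per kilobase per 1000000 counted (FPKM) in the libraries labelled cKO and 86.0 ± 6.68 FPKM in Ctrl, and the groups were far apart (log2 fold change 1.96, adjusted p = 1.10e-15). Its relative Gsto2 had 5, 34 and 6 counts in the libraries labelled cKO and 14, 5 and 6 in Ctrl, too few to test. Gstp1, the pi-class enzyme of epithelia, had 38.0, 29.9 and 31.9 CPM in the libraries labelled cKO, against 26.6, 23.8 and 24.5 CPM in the Ctrl libraries, a 1.33-fold rise (adjusted p = 1.57e-06 by edgeR); its neighbour Gstp3 had 3.99, 4.68 and 3.79 CPM in the libraries labelled cKO, against 6.73, 7.03 and 5.99 CPM in the Ctrl libraries (log2 fold change -0.66, adjusted p = 0.000410 by edgeR). Gstp2, with 120 counts over the libraries labelled cKO and 112 over Ctrl, was not called.

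The mu class, detoxification enzymes from 1 gene cluster, was mostly lower. Of 6 tested members 4 were called lower and Gstm6 higher, against 30.6% of all genes tested lower and 30.8% higher. Gstm5 had 44.6, 43.1 and 48.4 CPM in the libraries labelled cKO, against 89.1, 80.1 and 84.6 CPM in the Ctrl libraries. Gstm1 had 26.6, 22.5 and 21.3 CPM in the libraries labelled cKO, against 35.1, 39.6 and 38.4 CPM in the Ctrl libraries. In both the groups were apart (log2 fold change -0.90 with adjusted p = 3.75e-27 for Gstm5, and -0.68 with adjusted p = 2.82e-13 for Gstm1, by edgeR). Gstm2 and Gstm4 had log2 fold changes of -0.33 and -0.51, and Gstm6 one of 0.68 at 3.01 ± 0.534 CPM in the libraries labelled cKO and 1.88 ± 0.185 CPM in Ctrl. The call of Gstm4 was lost without Ctrl replicate 1 or cKO replicate 3 (adjusted p = 0.114 and 0.0821), and that of Gstm6 without cKO replicate 1 or 3 (adjusted p = 0.0509 and 0.0869). Gstm7 did not pass (log2 fold change -0.58, adjusted p = 0.269), and Gstm3 had 1 count over the libraries labelled cKO and 6 over Ctrl.

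In the theta class, Gstt3 had 7.34, 5.89 and 8.54 CPM in the libraries labelled cKO, against 17.2, 14.5 and 14.4 CPM in the Ctrl libraries. Gstt1 had 4.71, 6.53 and 5.60 CPM in the libraries labelled cKO, against 8.20, 8.68 and 8.55 CPM in the Ctrl libraries. Both were lower without overlap, 2.12-fold and 1.51-fold (adjusted p = 2.30e-12 and 0.000332 by edgeR). Gstt2 was not called (adjusted p = 0.706), and Gstt4 had 6 counts over the libraries labelled cKO and 1 over Ctrl. Gstk1, the kappa-class enzyme of mitochondria and peroxisomes, had 10.7, 12.4 and 9.92 CPM in the libraries labelled cKO, against 16.2, 16.2 and 16.2 CPM in the Ctrl libraries, and was called lower (log2 fold change -0.56, adjusted p = 3.77e-06), while Gstz1, an enzyme of tyrosine breakdown, was not (log2 fold change -0.04, adjusted p = 0.699). By RefSeq gene order in GRCm38.p6, with at most 1 other protein-coding gene between neighbours, the members form 5 runs, all of Gst genes. The run of 7 Gstm genes held 4 called lower and 1 higher, and the run of 4 Gstt genes held 2 called lower. Gsta4 and Gsta1, which are neighbours, were both called higher. In the Gstp run Gstp1 was called higher, Gstp2 was not called and Gstp3 was called lower. In the Gsto run Gsto1 was called higher and Gsto2 was not tested.

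Summed over the family, Gst transcripts came to 672 ± 13.0 FPKM in the libraries labelled cKO and 359.5 ± 10.8 FPKM in Ctrl (SD, n = 3 each), and their make-up differed. Gsto1 held 50.5 ± 0.345% of the summed Gst level in the libraries labelled cKO and 23.9 ± 1.31% in Ctrl. Gsta4 held 20.1 ± 0.765% in the libraries labelled cKO and 3.07 ± 0.329% in Ctrl, and Gstm5 held 7.47 ± 0.566% in the libraries labelled cKO and 25.6 ± 0.763% in Ctrl. In the libraries labelled cKO Gsto1 and Gsta4 held the largest shares, and in Ctrl Gstm5 and Gsto1 did.

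**Figure D3:**
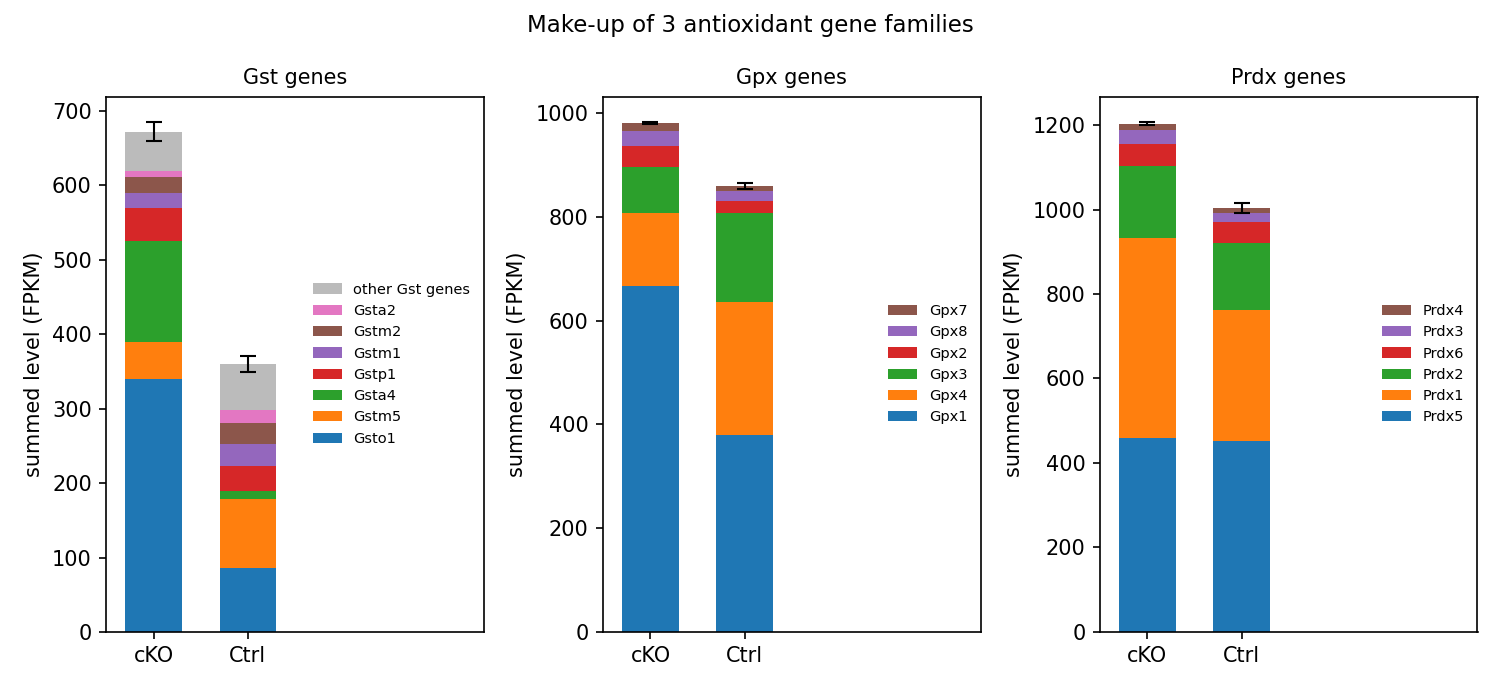
Summed level in FPKM of the Gst, Gpx and Prdx genes, as stacked group means over 3 libraries with the libraries labelled cKO left of Ctrl; black bars are the SD of the sum. Gsto1 and Gsta4 fill 50.5% and 20.1% of the Gst bar of the libraries labelled cKO, the Gpx1 band is taller and the Gpx3 and Gpx4 bands shorter than in Ctrl, and the Prdx1 band is taller.

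The microsomal transferases, membrane enzymes that act on lipid peroxides and leukotriene precursors, gave 2 lower and 1 higher. Of all genes tested 30.6% were called lower and 30.8% higher. Mgst1 had 204, 196 and 205 CPM in the libraries labelled cKO, against 349, 348 and 356 CPM in the Ctrl libraries. It held 70.3 ± 1.13% of the summed Mgst FPKM in the libraries labelled cKO and 77.6 ± 0.604% in Ctrl, and fell 1.74-fold without overlap (log2 fold change -0.80, SE 0.0234, adjusted p = 1.13e-43). Mgst3 was also lower, with 63.4 ± 2.22 CPM in the libraries labelled cKO and 81.7 ± 2.87 CPM in Ctrl, and Mgst2 was higher, with 25.5 ± 1.40 CPM in the libraries labelled cKO and 19.4 ± 1.36 CPM in Ctrl (SD, n = 3 each; log2 fold changes -0.37 and 0.40, adjusted p = 3.68e-11 and 1.79e-05 by edgeR).

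All 6 glutathione peroxidase genes were called, 4 higher and 2 lower, and no group overlapped. Of all genes tested 61.4% were called, and the groups did not overlap in 64.9%. Gpx1, the widespread cytosolic enzyme, had 621, 623 and 624 CPM in the libraries labelled cKO, against 357, 365 and 359 CPM in the Ctrl libraries. Gpx2, an epithelial relative known from the gut and as an NRF2 target, had 44.7, 43.0 and 44.8 CPM in the libraries labelled cKO, against 23.0, 23.9 and 23.4 CPM in the Ctrl libraries. These rose 1.73-fold and 1.88-fold (log2 fold change 0.79, SE 0.0185, adjusted p = 6.39e-50 for Gpx1, and adjusted p = 3.12e-21 for Gpx2). The enzymes Gpx7 and Gpx8 reside in the endoplasmic reticulum. Gpx7 had 18.9, 19.3 and 18.3 CPM in the libraries labelled cKO, against 11.3, 11.8 and 14.1 CPM in the Ctrl libraries, and Gpx8 had 28.4 ± 0.956 CPM in the libraries labelled cKO and 19.96 ± 1.22 CPM in Ctrl, with log2 fold changes of 0.61 and 0.51. Gpx3, which encodes the secreted peroxidase of plasma, had 142, 142 and 142 CPM in the libraries labelled cKO, against 282, 279 and 279 CPM in the Ctrl libraries. Gpx4, whose enzyme reduces phospholipid hydroperoxides in membranes and restrains ferroptosis, had 164, 159.9 and 163 CPM in the libraries labelled cKO, against 303, 302 and 303 CPM in the Ctrl libraries. Both were lower in every library labelled cKO than in any Ctrl library (log2 fold change -0.98, SE 0.0259, adjusted p = 1.47e-46 for Gpx3, and log2 fold change -0.90, SE 0.0248, adjusted p = 3.49e-45 for Gpx4).

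The summed Gpx level was 980.3 ± 2.14 FPKM in the libraries labelled cKO and 859 ± 4.91 FPKM in Ctrl. Within it Gpx1 held 68.1 ± 0.256% in the libraries labelled cKO and 44.2 ± 0.267% in Ctrl. Gpx4 held 14.2 ± 0.160% in the libraries labelled cKO and 29.8 ± 0.185% in Ctrl, and Gpx3 held 9.0 ± 0.0329% in the libraries labelled cKO and 19.99 ± 0.223% in Ctrl.

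Of the 6 peroxiredoxins, abundant thiol peroxidases, 5 were called higher and Prdx5 was not called, where 30.8% of all genes tested were called higher. Prdx1 of the cytosol had 664, 659.8 and 674 CPM in the libraries labelled cKO, against 445, 443 and 446 CPM in the Ctrl libraries, with no overlap (log2 fold change 0.58, SE 0.0176, adjusted p = 9.60e-43). Prdx3 of mitochondria had 47.0, 48.8 and 44.4 CPM in the libraries labelled cKO, against 29.5, 29.6 and 29.6 CPM in the Ctrl libraries, a 1.58-fold rise (adjusted p = 8.04e-16 by edgeR). Prdx4, the endoplasmic reticulum enzyme, was 1.29-fold higher with 46.3 ± 2.0 CPM in the libraries labelled cKO and 35.7 ± 2.27 CPM in Ctrl. Prdx5, the mitochondrial and peroxisomal enzyme, had 581, 586 and 565 CPM in the libraries labelled cKO, against 568, 582 and 584 CPM in the Ctrl libraries. Its groups overlapped (SE 0.0178 on the log2 scale, adjusted p = 0.970); the log2 difference was -0.000853, and 0.022 and 0.028 by total-count and upper-quartile scaling. Prdx2, whose groups overlapped, and Prdx6 passed with differences under 0.1 on the log2 scale, 0.07 and 0.08. The call of Prdx2 was lost without Ctrl replicate 1 or 2 or cKO replicate 3 (adjusted p = 0.0738, 0.0604 and 0.115) and that of Prdx6 without Ctrl replicate 2 or cKO replicate 2 (adjusted p = 0.101 and 0.0609). Srxn1, sulfiredoxin, which repairs overoxidised peroxiredoxins, had 82.2, 74.9 and 74.5 CPM in the libraries labelled cKO, against 56.0, 54.7 and 57.8 CPM in the Ctrl libraries, 1.37-fold higher without overlap (adjusted p = 7.75e-14).

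The thioredoxin system differed by component. Txn1, the cytosolic thioredoxin, had 444, 453 and 442 CPM in the libraries labelled cKO, against 325, 329 and 313 CPM in the Ctrl libraries. Every library labelled cKO lay above Ctrl (log2 fold change 0.47, SE 0.0208, adjusted p = 1.68e-32). Txnrd1, the NADPH-dependent reductase that serves Txn1, was the opposite, with 118, 120.5 and 117 CPM in the libraries labelled cKO, against 151, 140.2 and 147 CPM in the Ctrl libraries (log2 fold change -0.30, SE 0.0327, adjusted p = 8.52e-13). Txnip, whose product binds and inhibits thioredoxin and lowers glucose uptake, had 216, 216 and 219 CPM in the libraries labelled cKO, against 473, 458 and 455 CPM in the Ctrl libraries. That is a 2.13-fold fall with the groups far apart (log2 fold change -1.09, SE 0.0217, adjusted p = 1.08e-54). The mitochondrial Txn2 was 1.09-fold higher (adjusted p = 0.00895, but 0.0557 without cKO replicate 1). Txnrd3, a reductase known from testis, had a log2 fold change of 0.12 (adjusted p = 0.0464), which lost its call without Ctrl replicate 1 or 3 or cKO replicate 1 (adjusted p = 0.162, 0.0614 and 0.264) and in DESeq2 (adjusted p = 0.0660). The mitochondrial Txnrd2 had 5.21, 5.26 and 5.58 CPM in the libraries labelled cKO, against 4.03, 4.66 and 3.76 CPM in the Ctrl libraries; the groups did not overlap, but it was not called (adjusted p = 0.0651, but 0.0439 without Ctrl replicate 2, 0.0489 by total-count and 0.0457 by upper-quartile scaling).

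Among the other 11 Txn-named genes 10 were tested. Beside 30.8% higher and 30.6% lower over all genes, 8 of these 10 were called higher and 1 lower, each by less than 1.5-fold. Txndc17, a cytosolic thioredoxin relative, had the largest of these rises with 171 ± 1.34 CPM in the libraries labelled cKO and 137 ± 3.35 CPM in Ctrl (log2 fold change 0.32, adjusted p = 1.31e-15). Txndc12, Txnl4a, Txndc9, Txndc11, Txndc15, Txnl1 and Txndc5 had log2 fold changes between 0.31 and 0.09. The call of Txndc11 was lost in DESeq2 (adjusted p = 0.0515) and in 5 of 6 fits that left out 1 library, all but that without cKO replicate 1, with adjusted p up to 0.170 without cKO replicate 3. That of Txndc15 was lost without Ctrl replicate 2 or cKO replicate 1 (adjusted p = 0.0952 and 0.0738), and that of Txnl1 without Ctrl replicate 2, cKO replicate 2 or cKO replicate 3 (adjusted p = 0.0748, 0.0545 and 0.0881). Txndc16 was lower (22.4 ± 0.165 CPM in the libraries labelled cKO and 31.2 ± 0.847 CPM in Ctrl, log2 fold change -0.48, adjusted p = 2.15e-08), and Txnl4b was not called. Txndc2, known as a sperm thioredoxin, had 2 counts over the libraries labelled cKO and 25 over Ctrl, 16 of them in Ctrl replicate 2, too few to test.

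The superoxide dismutases, which turn superoxide into hydrogen peroxide, went both ways. Sod1, the cytosolic copper-zinc enzyme, had 56.1, 57.4 and 61.1 CPM in the libraries labelled cKO, against 80.0, 78.1 and 78.9 CPM in the Ctrl libraries, and fell 1.36-fold (log2 fold change -0.44, SE 0.0455, adjusted p = 1.08e-13). Sod3, the extracellular enzyme, had 57.8, 62.6 and 61.8 CPM in the libraries labelled cKO, against 56.4, 50.2 and 52.3 CPM in the Ctrl libraries, and rose 1.15-fold (adjusted p = 0.000572). Sod2, the mitochondrial manganese enzyme known as an NF-kB target, had 77.6, 79.9 and 75.9 CPM in the libraries labelled cKO, against 79.9, 73.3 and 75.4 CPM in the Ctrl libraries; its groups overlapped and it was not called (log2 fold change 0.03, adjusted p = 0.573).

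Nqo1 and Hmox1 are textbook readouts of NRF2. Nqo1, a quinone reductase, had 21.4, 21.4 and 21.4 CPM in the libraries labelled cKO, against 11.1, 9.94 and 12.2 CPM in the Ctrl libraries. It was 1.93-fold higher without overlap (log2 fold change 0.95, SE 0.0967, adjusted p = 6.41e-14). Hmox1, haem oxygenase, which is also strongly expressed by macrophages, had 155, 146 and 146 CPM in the libraries labelled cKO, against 116, 111 and 116 CPM in the Ctrl libraries, 1.30-fold higher without overlap (log2 fold change 0.38, SE 0.0330, adjusted p = 4.91e-17). Macrophage markers were higher as well, with 8 of 9 called higher, where 30.8% of all genes tested were. They summed to 1176 to 1203 CPM in the libraries labelled cKO and 821 to 832 CPM in Ctrl, with none at 0. Their part in the Hmox1 difference was not tested. Of some members widely used as NRF2 targets, picked after their values were seen, Nqo1, Hmox1, Srxn1, Gclm, Slc7a11, Gsr, Prdx1 and Gpx2 were called higher, and Gclc, Txnrd1, Gstm1 and Gsta3 lower. The pick is not a full list of such targets, so its balance of higher and lower calls depends on the choice.

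The neighbouring pathways, from 4 lists chosen with earlier results of these data known, held more lower than higher calls. Of 98 tested genes outside the set 33 were called higher and 46 lower, 33.7% and 46.9% against 30.8% and 30.6% over all genes tested (median log2 fold change -0.12). Of 31 tested other NRF2 targets 9 were higher and 17 lower, 29.0% and 54.8%. Akr1b8, an aldose reductase relative, rose 3.12-fold with 49.1 ± 2.37 CPM in the libraries labelled cKO and 15.7 ± 0.894 CPM in Ctrl, and Cbr3, a carbonyl reductase, rose 1.85-fold with 73.6 ± 1.94 CPM in the libraries labelled cKO and 39.8 ± 0.546 CPM in Ctrl. Aldh3a1, an aldehyde dehydrogenase, fell 2.99-fold with 25.6 ± 2.49 CPM in the libraries labelled cKO and 76.5 ± 1.72 CPM in Ctrl, and Aox1, aldehyde oxidase, fell 1.84-fold (adjusted p = 9.87e-34, 2.49e-26, 5.60e-38 and 4.33e-08 in the order named, by edgeR). The NADPH-producing genes G6pdx and Pgd had log2 fold changes of 0.32 and 0.52 (adjusted p = 3.26e-15 and 5.45e-25 by edgeR). They were chosen after their values were seen. Values of other genes of that list, such as Me1, Idh1, Tkt and Taldo1, are not given, so the pick does not describe NADPH supply.

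Among NRF2's partners and regulators 3 of 18 were called higher and 9 lower, 16.7% and 50% against 30.8% and 30.6% over all genes tested. The risers of at least 1.5-fold, 2 genes with log2 fold changes up to 1.92, were under 5 CPM and are not named. Bach1, a repressor that competes with NRF2 for the same element, had 66.2 ± 2.64 CPM in the libraries labelled cKO and 96.8 ± 1.19 CPM in Ctrl (log2 fold change -0.55, adjusted p = 1.42e-19). Its relative Bach2 and the ubiquitin ligase gene Trim16 fell 1.52-fold and 1.53-fold, and the coactivator gene Crebbp 1.34-fold (adjusted p = 7.67e-06, 2.63e-14 and 1.76e-10). Of 27 other glutathione genes 13 were higher and 9 lower, 48.1% and 33.3%, the share lower being near that of all genes. Glrx, the cytosolic glutaredoxin, rose 2.10-fold with 548 ± 8.67 CPM in the libraries labelled cKO and 260.2 ± 4.01 CPM in Ctrl, Hpgds, a sigma-class transferase that makes prostaglandin D, rose 2.82-fold with 18.7 ± 1.42 CPM in the libraries labelled cKO and 6.64 ± 0.428 CPM in Ctrl, and Esd, a glutathione-linked esterase, rose 1.98-fold. Chac1, which breaks glutathione down, fell 2.2-fold with 28.8 ± 1.15 CPM in the libraries labelled cKO and 63.4 ± 1.42 CPM in Ctrl (adjusted p = 5.09e-56, 6.73e-20, 1.74e-35 and 9.14e-30 for the 4 genes).

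Of 22 other redox genes 8 were higher and 11 lower, 36.4% and 50% against 30.8% and 30.6% over all genes tested. Cat, catalase, which removes hydrogen peroxide in peroxisomes, fell 1.65-fold with 67.0 ± 4.34 CPM in the libraries labelled cKO and 111 ± 2.55 CPM in Ctrl. Msra, a methionine sulfoxide reductase, and Aifm2, a quinone reductase that guards membranes beside GPX4, fell 1.60-fold and 1.54-fold. Sephs2, which makes the selenium donor for selenoproteins such as the main glutathione peroxidases, rose 1.70-fold with 74.4 ± 1.64 CPM in the libraries labelled cKO and 43.7 ± 1.68 CPM in Ctrl (adjusted p = 4.82e-26, 8.04e-07, 1.58e-07 and 2.63e-23 by edgeR for Cat, Msra, Aifm2 and Sephs2).

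**Figure D4:**
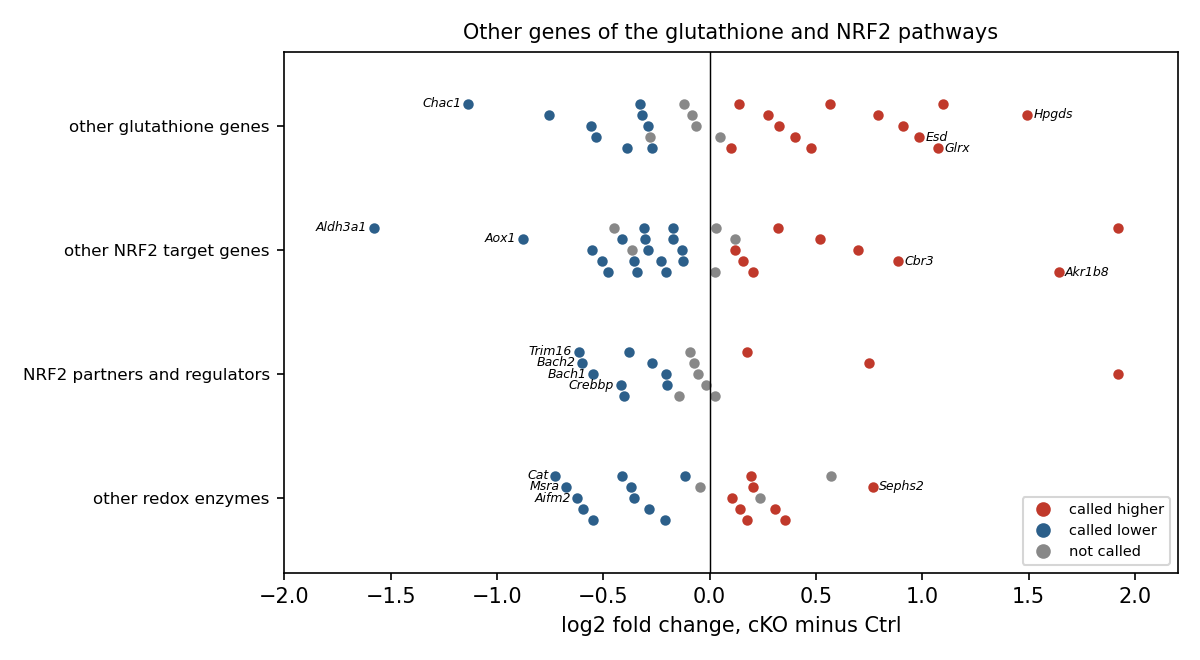
Log2 fold change (libraries labelled cKO minus Ctrl) of the tested genes in 4 lists of pathway genes outside the set, 1 point per gene, red where called higher, blue where called lower and grey where not called; labelled genes are those named by rule. Among labelled NRF2 targets Akr1b8 lies highest at 1.64 and Aldh3a1 lowest at -1.58, and the unlabelled points at 1.92 are genes under 5 CPM.

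With an assumed biological coefficient of variation of 20% in place of the small spread between these libraries, 10 members stayed called higher and 10 lower. That is out of 63 tested members, beside 1830 higher and 1531 lower among all 15061 genes tested. The members kept upward were Gsta4, Gsta1, Gsto1, Nfe2l2, Slc7a11, Nqo1, Gpx2, Gpx1, Prdx3 and Gsr. Those kept downward were Gsta3, Gsta2, Txnip, Gstt3, Gpx3, Gstm5, Gpx4, Mgst1, Gstm1 and Gstp3. At 40% the calls of Gsta4, Gsta1, Gsto1 and Nfe2l2 upward and Gsta3 downward were kept, beside 458 higher and 316 lower among all genes tested. Among the calls lost at 20% were those of Gclc, Gclm, Gss, Hmox1, Srxn1, Txn1 and Txnrd1 (adjusted p = 0.706, 0.411, 0.50, 0.265, 0.163, 0.148 and 0.413 in the order named). Gstm6, Gpx7 and Gstt1, called with at least 1.5-fold changes in the main fit, were lost as well (adjusted p = 0.052, 0.054 and 0.067 in the same 20% fit).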

How the data were processed

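RNA from mouse tail skin was taken up in TRIzol and sequenced from VAHTS Universal V5 libraries, per the labels' protocols. Per the submitters' processing notes the tools were fastp, HISAT2 and HTSeq and the build mm39. Their versions, annotation, strand mode and treatment of multi-mapping reads are not given in the sources. The authors deposited whole-number counts per gene and FPKM for the same 18180 genes. The deposited FPKM equalled counts over 1 length per gene and the column total (relative tolerance 1e-06) for all of them, so FPKM was used for levels between genes and for alternatives. No value column was left unmapped.

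The count test used edgeR 4.0.16 (R 4.3.3). Its filterByExpr (minimum count 10, minimum total 15) kept 15061 genes, libraries were scaled by TMM, and the robust quasi-likelihood test had group as its only term. P-values were adjusted by Benjamini-Hochberg over all genes tested, and genes under 0.05 were called. CPM in the text use TMM-scaled library sizes, SD is over 3 libraries, and a standard error is the log2 fold change over the square root of F. Only the count test was tried on simulated counts, with a small spread like that between these libraries. That does not cover a larger spread between mice, the alternatives or the promoter search. The cKO and Ctrl libraries followed the titles in the labels.

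The members and gene lists were chosen with earlier results of these data known. Library values are given for Nfe2l2, Keap1, Slc7a11, Gclc, Gclm, Gss, Gsr, Nqo1, Hmox1, Srxn1, Txn1, Txnip, Txnrd1 and every called member with at least a 1.5-fold change and 5 CPM in the higher group (30 genes), and for some further members chosen after their values were seen. From each pathway list up to 4 called genes with the largest change and 5 CPM were named. G6pdx and Pgd were named outside this rule, after their values were seen. The other lists fixed were markers of keratinocytes, stress keratins with Sprr2d and Sprr1b, hair, sebocytes, fibroblasts, neutrophils, macrophages and T cells. Further lists held markers of red blood cells, skeletal muscle, endothelium, adipocytes, Schwann cells, melanocytes and proliferation. Alternatives were DESeq2 1.42.0, limma-voom (limma 3.58.1), RLE, upper-quartile and total-count scaling, no filter or 1 CPM in 3 libraries, limma on log2(FPKM + 1) and log2(FPKM + 0.1), a filter of 0.5 FPKM, a stricter adjusted p (0.01), replicate number as a block, assumed coefficients of variation of 20% and 40%, and leaving out each library.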

Additional observations from a re-analysis of the deposited data

How the results depend on the processing

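Of 54 called members 44 kept direction and call under all alternatives except the assumed coefficients of variation, and no called member changed sign under any of the 20 alternatives. With 1 library left out, 31 to 33 members were called higher and 18 to 19 lower. Of all genes, 4372 to 4478 were higher and 4309 to 4369 lower in those fits, beside 4637 and 4607 with every library kept. An assumed coefficient of variation of 20% left 10 members higher and 10 lower, 13 and 8 other pathway genes, and 1830 and 1531 of all genes. At 40% these were 4 and 1 members, 4 and 1 other pathway genes, and 458 and 316 of all genes; by construction these settings assume a larger spread than the libraries show. Among uncalled members the log2 difference changed sign for Prdx5 (0.022 by log2(FPKM + 1) with or without its filter, 0.022 by log2(FPKM + 0.1), 0.0021 without a count filter, 0.022 by total-count and 0.028 by upper-quartile scaling). With 1 library left out it ranged from -0.012 to 0.018 for Prdx5, -0.054 to 0.34 for Gstp2, -0.10 to 0.022 for Gstz1 and -0.024 to 0.063 for Keap1. The labels number the libraries 1 to 3 in both groups, but same-numbered libraries did not deviate together (correlations -0.0108, -0.00499 and -0.0282 over 14082 genes). That gave no sign of a pairing by number, but it cannot exclude one, since the spread may be technical. The replicate block gave 35 members higher and 19 lower, 33 and 47 other pathway genes, and 4625 and 4587 of all genes. Upper-quartile scaling, the largest shift among the scalings, moved the median of all genes by 0.029 on the log2 scale. Depth limits Gstm3, Gsto2, Gstt4 and Txndc2, which were too low to test.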

Other observations

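The spread between libraries was alike in all 6 pairs of libraries within a group. The chi-square of a pair's counts per degree of freedom was 3.97 to 4.12 among the libraries labelled cKO and 3.94 to 4.06 among the Ctrl libraries, over 14936 to 14982 genes with at least 20 counts in the pair, where sampling alone gives a value near 1. Values above 1 set these pairs apart from a random split of the reads of 1 library. They cannot tell separate mice from separate preparations of the same RNA, so the independence of the libraries was not tested.

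Of the marker lists not set beside a result above, 6 of 7 fibroblast markers, all 6 endothelial markers, 5 of 6 melanocyte markers and 4 of 5 T cell markers in the table were called higher, and all 6 Schwann cell markers lower. Skeletal muscle markers had 2 of 8 tested called higher, with summed levels of 16.3 to 35.8 CPM in the libraries labelled cKO and 12.2 to 16.9 CPM in Ctrl. Over all genes tested 30.8% were called higher and 30.6% lower.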
